A study of Mus musculus with 4 samples.

Results

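Translation initiation and elongation factors are the proteins that bring a ribosome to the start codon of an mRNA and move it along the coding sequence. Their genes were taken as every mouse gene whose symbol begins with Eif1 to Eif6, Eef1 or Eef2, with the inhibitors Eif4ebp1 and Eif4ebp2, the kinase Eif2ak2 and symbols marked as pseudogenes (-ps) left out. This gave 65 genes of the 39179 gene identifiers counted, and 8 other identifiers that match the pattern were left out by those exceptions. The rule reads gene symbols only.

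The libraries were made from CD4 T cells with the OT-II receptor, a transgenic T cell receptor that recognises a peptide of ovalbumin. The cells carried the Thy-1.1 marker, were transferred into C57BL/6 mice, and were isolated on day 8 from inguinal lymph nodes, pooled, of hosts that had been immunized subcutaneously with ovalbumin coupled to nitrophenol. T follicular helper (Tfh) cells were sorted as CD44hi CXCR5+ PD-1+, in libraries T32 and T53, and non-Tfh cells as CD44hi CXCR5- PD-1-, also in libraries T32 and T53. Both groups therefore share the receptor, the transfer, the immunization, the day and the CD44hi gate. Both groups were sorted as donor cells with the same transgenic receptor, pooled over lymph nodes. The labels do not say what the numbers 32 and 53 mark, nor that the libraries came from separate animals, so p-values measure only the spread between 2 libraries of a group, which may be technical.

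In initiation, the eIF4F complex of the cap-binding protein eIF4E, the scaffold eIF4G and the helicase eIF4A prepares the mRNA, while eIF2 brings the initiator tRNA to the small subunit together with eIF1, eIF1A, eIF3 and eIF5. The GTP on eIF2 is renewed by eIF2B, and kinases that phosphorylate eIF2 alpha block this step under stress. In elongation, eEF1A delivers aminoacyl-tRNA, the eEF1B complex renews its GTP, and eEF2 moves the ribosome to the next codon. T cells increase protein synthesis when they are activated, and mRNAs of ribosomal proteins and elongation factors share a pyrimidine tract at their 5′ end through which mTORC1 controls their translation.

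Total counts were 12354113 and 5725358 in the Tfh libraries T32 and T53, against 13360563 and 8636056 in the non-Tfh libraries, so that a single count stood for 0.0745 to 0.175 CPM, the unit of scaled counts used here. The libraries fitted their labels at the sorting genes. Cxcr5 was at 747 and 712 CPM in Tfh cells, against 52.6 and 56.0 CPM in non-Tfh cells, and Pdcd1, which encodes PD-1, at 536 and 576 CPM, against 57.0 and 53.4 CPM. Cd44, which both gates share, had 231 and 319 CPM in Tfh cells and 163 and 218 CPM in non-Tfh cells. The 7 T cell markers summed to 3325 and 3305 CPM in Tfh cells, against 2920 and 2899 CPM in non-Tfh cells. Of other cell types, 10 B cell markers summed to 145 and 141 CPM in Tfh cells, against 11.8 and 20.3 CPM in non-Tfh cells. Nearly all of this was Cd22, with 139.5 and 134 CPM in Tfh cells and 9.61 and 14.8 CPM in non-Tfh cells. Pax5 had 61 and 30 counts in Tfh cells and 0 and 4 in non-Tfh cells, and these were the 2 tested genes of the list, both called. The other 8 markers of the list had 0 to 4 counts in each Tfh library and 0 to 20 counts in each non-Tfh library, with Cd79b the highest in both, at 0 and 4 counts in Tfh cells and 20 and 2 counts in non-Tfh cells. Of the defining markers, Ebf1 was at 0 in both Tfh libraries, and Ms4a1 and Cd79a had 1 and 0 counts there. The 10 granulocyte and erythroid markers summed to 0 and 0 CPM in Tfh cells, against 0 and 0.225 CPM in non-Tfh cells. The 10 macrophage and dendritic cell markers summed to 7.46 and 7.86 CPM in Tfh cells, against 5.66 and 12.9 CPM in non-Tfh cells. In the other lists of cells and handling, S1pr2 and Fas (germinal centre B cell list, and both also known in T cells) and Klrb1c (NK and CD8 list) were called higher in Tfh cells, and Klrd1, Eomes and the immediate early gene Ier2 lower. Of the plasma cell list 0 of 3 tested genes were called. The part of any of these in the values given next was not tested.

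Differences between the groups were small in the translation factor genes. None of the 58 tested genes passed an adjusted p of 0.05 in edgeR's quasi-likelihood test with Benjamini-Hochberg adjustment over 11702 genes, where 994 genes (8.49%) passed. DESeq2 and limma-voom called 0 of them as well. Over the 13 alternatives that were run, 0 of the genes were called in 11. Without a count filter 3 of 61 were called, where 1986 genes were called in all. How many genes were tested in that fit is not given here, so the 3 cannot be set against a share. With a block for the library number 7 of 58 were called, where 2120 of the same 11702 genes were called. Both fits thus called more genes of any kind than the 994 above. In the edgeR test named first, 4.47% of all genes were called higher and 4.02% lower. At an unadjusted p under 0.05 there were 4 (Eef2k, Eef1d, Eef1g and Eif4enif1), where 22.0% of all genes tested were under it. The log2 fold changes, Tfh over non-Tfh, ran from -0.92 for Eef2k to 0.44 for Eif4enif1, with an SD across genes of 0.213 against 0.889 over all genes tested. Extreme genes weigh heavily in the SD. The median absolute log2 fold change was 0.129, against 0.224 over all genes tested, which is a smaller contrast. For 57 of the 58 genes the 95% interval of the change lay within 2-fold in either direction, which held for 67.2% of all genes tested. It lay within 1.5-fold for 40 of the 58, against 36.7% of all genes. These 2 shares depend on depth, and the translation factor genes are mostly well counted. Among the 5012 genes with at least 34.1 CPM on average, the lower quartile of the translation factor genes, the SD was 0.543. The median absolute log2 fold change of those 5012 genes was 0.171. The interval of Eef2k alone reached past 2-fold. The fitted change was under 1.25-fold for 51 of the 58 genes, against 62.8% of all genes, and it was 2-fold or more for 0 of the 58, against 9.98% of all genes.

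Most of the small differences had the same sign. The fitted value was below 0 for 44 of the 58 genes, where it was below 0 for 50.7% of all genes, and above 0 for 14. The median was -0.10 on the log2 scale, against -0.0054 over all genes tested. Library non-Tfh T32 stood apart in this. With each gene centred on its mean over the 4 libraries, the median deviation was 0.0079 for Tfh T32 and -0.077 for Tfh T53, against 0.16 for non-Tfh T32 and -0.059 for non-Tfh T53. Without non-Tfh T32 the median log2 fold change of the genes was 0.019 and 27 of 58 were below 0. Both Tfh libraries were below both non-Tfh libraries for 15 genes (25.9%), where this held for 25.6% of all genes tested. Both Tfh libraries were above both non-Tfh libraries for 5 genes (8.62%), against 26.6% of all genes. In bulk RNA, fewer cells that express a gene and less of its RNA per cell cannot be told apart.

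**Figure D1:**
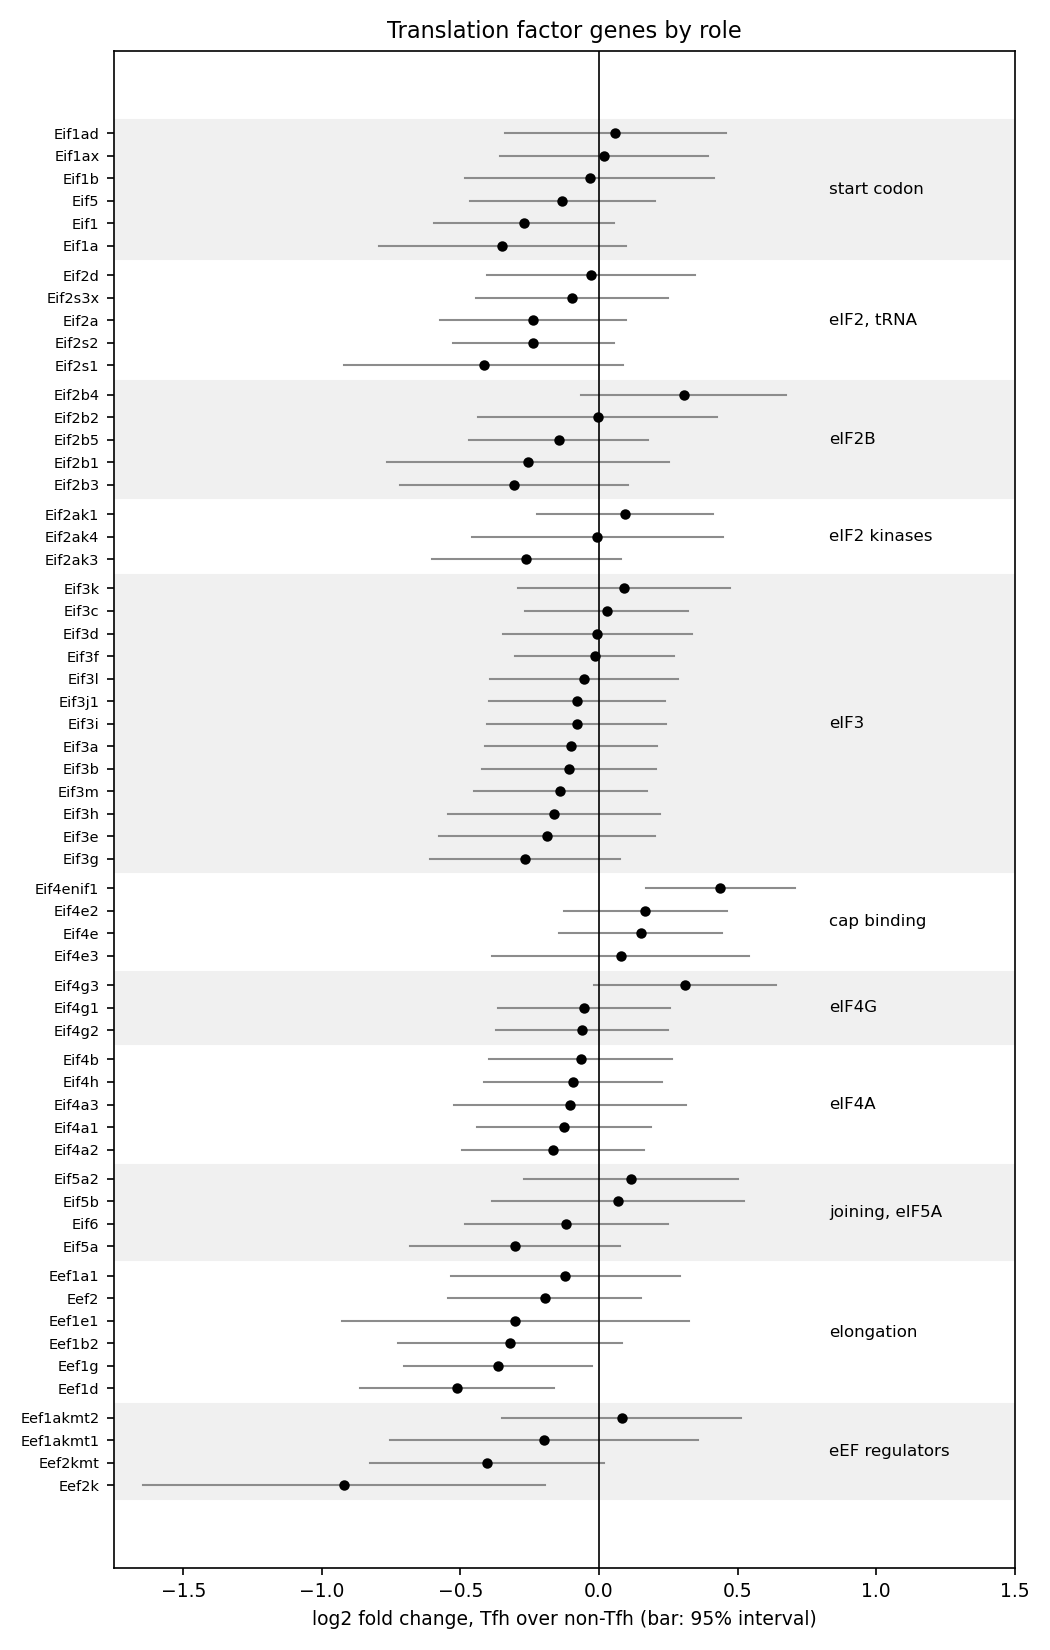
Log2 fold change, Tfh over non-Tfh (horizontal axis), of the 58 tested translation factor genes, ordered by role, with 95% intervals as bars. All points lie between -0.92 (Eef2k) and 0.44 (Eif4enif1), and none passed the adjusted threshold.

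Of the 7 genes not tested, 4 had no count in any library. These were Eef1a2, the second eEF1A gene, known from muscle and neurons; Eif4e1b, an eIF4E relative known from oocytes; the Y-linked Eif2s3y; and Eif2c5, which the annotation lists as a non-coding RNA. A count of 0 allows up to 3 counts, or 0.251 and 0.524 CPM in Tfh T32 and T53 and 0.223 and 0.337 CPM in non-Tfh T32 and T53 (counting error only). The other 3 had too few counts for a test. Eif4ebp3, which encodes an eIF4E inhibitor, had 2 and 4 counts in Tfh cells and 7 and 5 in non-Tfh cells. Eif3j2 had 5 and 6 counts against 6 and 3, and Eef1akmt3, a methyltransferase gene, 2 and 2 counts against 2 and 0.

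Levels of different genes were set side by side per kilobase of exon (FPKM, from the scaled CPM). Eef1a1, which encodes the tRNA-delivering eEF1A, had 2388 and 2006 FPKM in Tfh cells, against 2509 and 2269 FPKM in non-Tfh cells. Eef2 had 517 and 506 FPKM in Tfh cells, against 617 and 555 FPKM in non-Tfh cells. These 2 genes stood above all others in every library, and the other 56 tested genes had mean levels from 0.713 FPKM (Eef2k) to 131 FPKM (Eef1g). Next in order were Eef1g with 106 to 158 FPKM over the libraries and Eef1b2 with 86.6 to 135 FPKM. Within each library Eef1g was the higher of this pair, by 1.12-fold and 1.23-fold in Tfh T32 and T53 and by 1.17-fold and 1.24-fold in non-Tfh T32 and T53. The order further down depends on the transcript length used. With the longest coding transcript in place of all exons, Eif4a1 at 181 FPKM and Eif4a2 at 178 FPKM came before Eef1b2 at 144 FPKM.

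All translation factor genes together took 1.41% of the counts of Tfh T32 (Wilson 95% interval 1.40 to 1.42%) and 1.32% of Tfh T53 (1.31 to 1.33%). In non-Tfh T32 and T53 the shares were 1.61% (1.60 to 1.61%) and 1.47% (1.46 to 1.48%). Both Tfh shares were below both non-Tfh shares, and the libraries of 1 group differed by far more than these intervals, which cover counting error only. Eef1a1 and Eef2 together made up 52.6 and 50.5% of these counts in Tfh cells, against 52.0 and 52.5% in non-Tfh cells. Without them the other genes took 0.669 and 0.655% of counts in Tfh cells, against 0.771 and 0.699% in non-Tfh cells.

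Eef1a1 has 11 near-identical copies in the annotation (at least 97% identity over 150 bases or more), Eif1 has 8, and 15 of the 58 tested genes have at least 1. Reads from such copies cannot be placed with certainty, so the levels of these genes are uncertain. Gm6548 and Gm13456, the counted copies of Eef1a1 with the most reads, had 225 and 58 counts and 96 and 31 counts in Tfh cells, and 277 and 165 counts and 111 and 52 counts in non-Tfh cells. Eef1a1 itself had 71043 and 28625 counts in Tfh cells and 83962 and 50319 counts in non-Tfh cells. Other matches are to genes with more reads. Emd, which matches Eif1 over 321 bases, had 378 and 179 counts in Tfh cells and 409 and 251 counts in non-Tfh cells, against 847 and 440 counts of Eif1 in Tfh cells and 1087 and 865 in non-Tfh cells. Tmem245, which matches Eef1akmt3 over 186 bases, had 935 to 2702 counts over the libraries. How many of these reads lie in the matching bases was not tested.

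**Figure D2:**
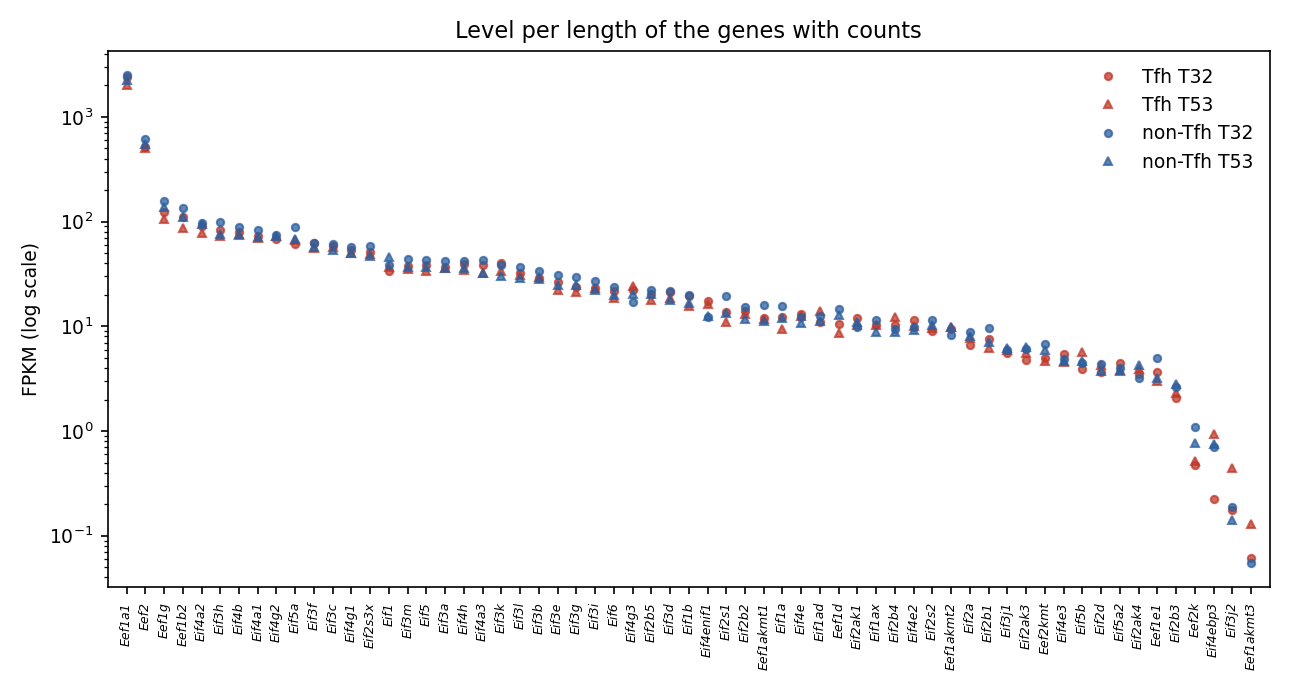
Level of the 61 genes with any count, in FPKM on a log scale, for each of the 4 libraries (circles T32, triangles T53), ordered by mean. Eef1a1 at 2006 to 2509 FPKM and Eef2 at 506 to 617 FPKM stand above the rest, and the libraries lie close together for nearly all genes. A value of 0 for Eef1akmt3 in non-Tfh T53 is not drawn.

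Promoter windows of 50 of the genes were available from RefSeq (build GRCm38.p6), 250 bases before and 50 after each annotated start. The letters CACGTG, the E-box to which Myc with Max is known to bind, read the same on both strands and were in the windows of 12 of the 50 genes (24.0%), against 8.09% of all 27025 genes in the table and 12.2% of the 8742 that were tested here. A match is a description and not a binding site. The 30-base stretches below surround this motif, in capitals, in genes of the cap-binding complex and of elongation, whose levels are described further on; each is written 5′ to 3′ on the strand of its gene.
Eif4e, chr3:138527192-138527221, plus strand, motif from base -64 of the start: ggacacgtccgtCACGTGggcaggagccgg
Eif4g1, chr16:20672661-20672690, plus strand, from base -54: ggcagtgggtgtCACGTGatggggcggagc
Eif4a1, chr11:69672595-69672624, minus strand, from base -189: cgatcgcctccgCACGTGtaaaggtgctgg
Eef2, chr10:81176576-81176605, plus strand, from base -43: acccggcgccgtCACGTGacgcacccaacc
Eef2k, chr7:120842788-120842817, plus strand, from base -31: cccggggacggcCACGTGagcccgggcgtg
The bases next to the motif differ between these windows, and Eif4e and Eif4g1 each have it at a second place. The other 7 genes with the motif were Eif1b, Eif3a, Eif3f, Eif3k, Eif4h, Eif5a and Eif5a2. The median log2 fold change was -0.07 over the 12 genes with the motif and -0.10 over the 35 tested genes with a window without it. The range with the motif ran from -0.92 (Eef2k) to 0.15 (Eif4e), so genes with the same motif lay on both sides of 0. Myc had 21.4 and 12.1 CPM in Tfh cells, against 34.6 and 36.5 CPM in non-Tfh cells, with a log2 fold change of -1.05 ± 0.26 (SE) and an adjusted p of 0.0634 in edgeR's quasi-likelihood test. In DESeq2 the adjusted p of Myc was 0.0149, and over the 13 alternatives, which include leaving out each library, it ran from 4.99e-07 to 0.184.

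A start with C and then at least 4 pyrimidines (C or T) is the form of the 5′ tract named above. It was at the annotated first base of 3 of the 50 genes (6.00%), against 3.01% of all genes in the table. Of the 8742 genes that were tested here the share was 3.04%. The 3 were Eif3f, Eif2s3x and the non-coding Eif2c5, which had no counts. Of the translation factor genes known to carry the tract, listed further on, Eif3f alone was among them. Annotated starts do not always mark the first base of the mRNA. The windows of Eif3f and Eif2s3x are shown, with the first base of the transcript and the pyrimidines after it in capitals.
Eif3f, chr7:108934405-108934434, plus strand: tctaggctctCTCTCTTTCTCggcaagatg
Eif2s3x, chrX:94212632-94212661, minus strand: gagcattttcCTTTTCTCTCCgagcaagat
Eif3f had 180 and 163 CPM in Tfh cells and 180 and 167 CPM in non-Tfh cells, with a log2 fold change of -0.02 ± 0.12.

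Genes of cap-binding proteins and their inhibitors were the one role whose 4 tested members were all above 0. Their median log2 fold change was 0.16, and 0 of 4 were called. That median was 0.094 to 0.23 with 1 library at a time left out. Without Tfh T32, 1 of the 4 was below 0, Eif4e3 at -0.049. Eif4enif1 encodes 4E-T, which binds eIF4E, carries it into the nucleus and takes part in mRNA repression in P-bodies. It had 112 and 104 CPM in Tfh cells, against 79.0 and 80.7 CPM in non-Tfh cells. The groups did not overlap, and the log2 fold change was 0.44 ± 0.11 (SE; 95% interval 0.17 to 0.71) with an adjusted p of 0.0654. Without a filter on low counts its adjusted p was 0.0292, and over the 13 alternatives it ran from 0.0171 to 0.305.

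Eif4e, the cap-binding protein itself, had 78.3 and 76.0 CPM in Tfh cells, against 74.0 and 65.0 CPM in non-Tfh cells. Eif4e2 encodes 4EHP, a relative that binds the cap without eIF4G and is known as a repressor, and it had 85.5 and 75.3 CPM in Tfh cells and 73.8 and 69.6 CPM in non-Tfh cells. In both genes the Tfh libraries lay just above the non-Tfh libraries, with log2 fold changes of 0.15 ± 0.12 and 0.17 ± 0.12 and adjusted p of 0.555 and 0.508 (edgeR). The intervals, -0.14 to 0.44 for Eif4e and -0.13 to 0.46 for Eif4e2, hold 0 and leave out a change of 1.5-fold. Eif4e3 had 13.6 and 11.5 CPM in Tfh cells and 12.2 and 11.7 CPM in non-Tfh cells, which overlap. It shares 373 exon bases on the same strand with Gm20696, which had 64 and 34 counts in Tfh cells and 288 and 513 counts in non-Tfh cells.

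Of the 3 scaffold genes, Eif4g3 stood apart from the others. It had 245 and 266 CPM in Tfh cells, against 188 and 225 CPM in non-Tfh cells, with a log2 fold change of 0.31 ± 0.14 and an adjusted p of 0.254 (edgeR), which ran from 0.0480 to 0.668 over the 13 alternatives. Eif4g1, the main scaffold, had 389 and 370 CPM in Tfh cells and 419 and 369 CPM in non-Tfh cells. Eif4g2, or DAP5, which lacks the eIF4E-binding region, had 699 and 741 CPM in Tfh cells and 760.1 and 741 CPM in non-Tfh cells. Both lay close to 0 on the log2 scale, at -0.05 ± 0.13 for Eif4g1 and -0.06 ± 0.13 for Eif4g2. Per kilobase, Eif4g3 stood to Eif4g1 as 0.416 and 0.475 in Tfh cells, against 0.296 and 0.402 in non-Tfh cells, a ratio taken within each library and so free of scaling. The ratio was higher in both Tfh libraries, by 0.35 on the log2 scale, and the gap between Tfh T32 and non-Tfh T53 was small. How often the ratio of other gene pairs keeps the groups apart was not tested, here or for the ratios given below. Eif4g2 to Eif4g1 stood at 1.29 and 1.44 in Tfh cells and at 1.30 and 1.44 in non-Tfh cells.

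**Figure D3:**
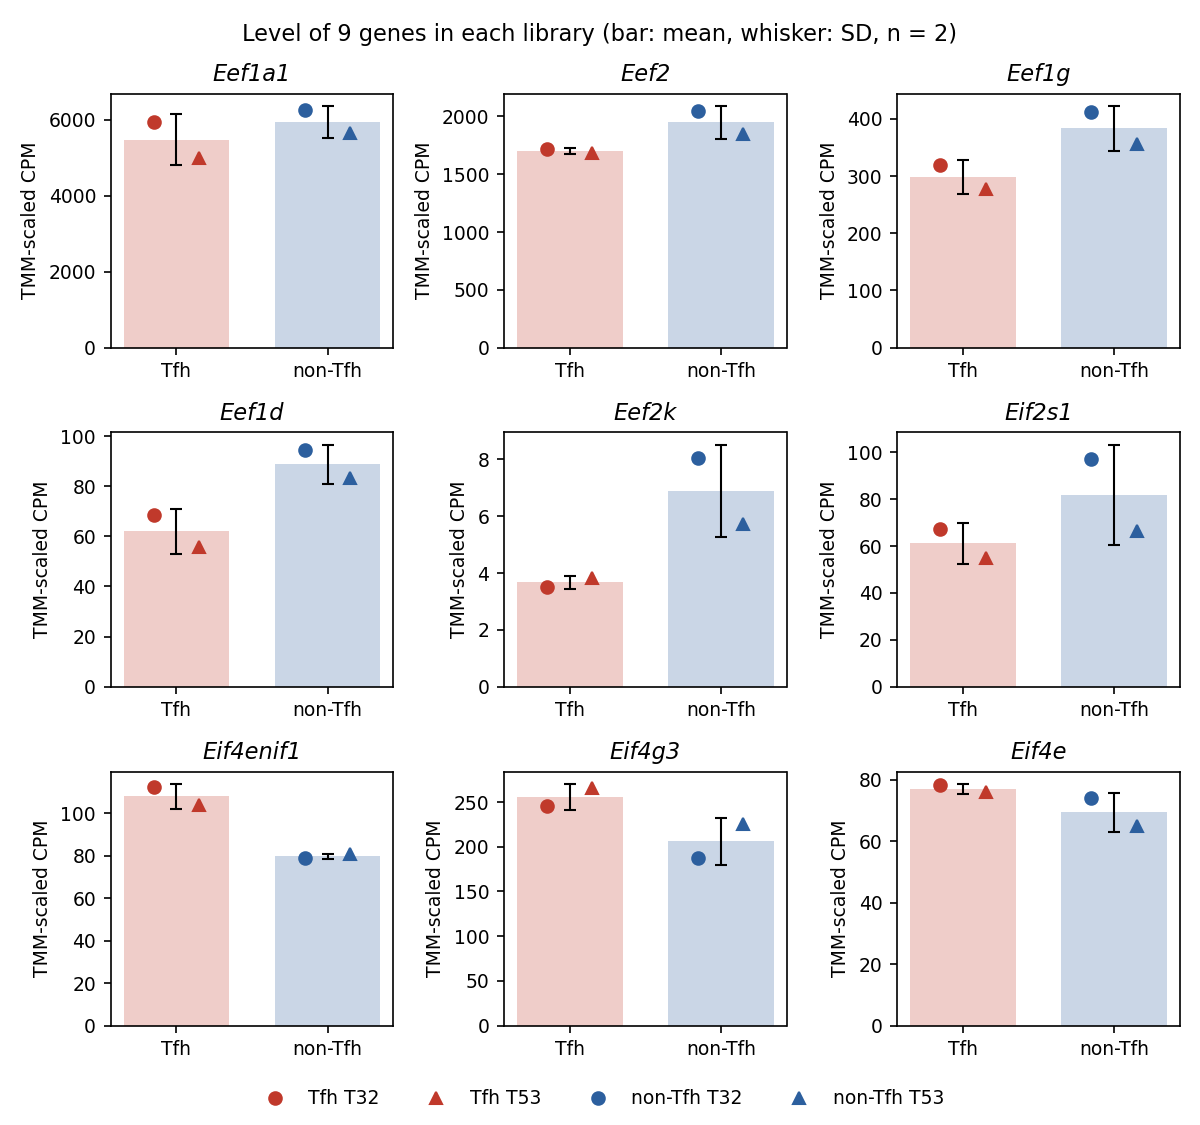
Scaled CPM of 9 translation factor genes in each library (circles T32, triangles T53), with the mean of each group as a bar from 0 and the SD as a whisker (n = 2 each). Eef1d, Eef1g, Eef2 and Eef2k lie lower in both Tfh libraries, Eif4enif1, Eif4g3 and Eif4e higher in both, and Eef1a1 and Eif2s1 overlap.

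The helicase eIF4A and its cofactors showed little. Eif4a1 had 313 and 303 CPM in Tfh cells and 362 and 310 CPM in non-Tfh cells, and Eif4a2 had 490 and 417 CPM against 513 and 505 CPM. Eif4a1 stood to Eif4a2, per kilobase, as 0.787 and 0.895 in Tfh cells and as 0.869 and 0.757 in non-Tfh cells, so the ratio overlapped. The levels of Eif4a3, a core protein of the exon junction complex and not of cap binding, overlapped between groups. So did those of Eif4b and Eif4h, which stimulate eIF4A. Over the 5 genes the log2 fold changes ran from -0.17 (Eif4a2) to -0.07 (Eif4b), and the smallest adjusted p was 0.562 (edgeR).

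The eIF3 complex, the largest initiation factor, which bridges the small subunit and eIF4G, had 13 tested subunit genes. Their log2 fold changes lay in a narrow band, from -0.27 (Eif3g) to 0.09 (Eif3k), with a median of -0.08. None passed the test, and the smallest adjusted p was 0.350 (edgeR). Eif3a, the core scaffold subunit, had 322 and 317 CPM in Tfh cells, against 368 and 318 CPM in non-Tfh cells, where non-Tfh T32 alone was high. The same library was the highest of the 4 for Eif3b, Eif3c, Eif3d, Eif3e, Eif3h, Eif3i, Eif3l and Eif3m. Without it the median of the eIF3 genes was 0.04 and 4 of 13 were below 0, and without non-Tfh T53 the median was -0.20. Eif3g had 47.3 and 42.6 CPM in Tfh cells, against 58.8 and 49.4 CPM in non-Tfh cells, the 1 eIF3 gene whose groups did not overlap. Eif3j1 had 32.6 and 34.6 CPM against 34.5 and 36.4 CPM, and its counts are uncertain because Eif3j2 matches it over 2379 bases.

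The 6 tested genes placed with the start codon factors by symbol gave a similar picture, with 4 below 0 and a median of -0.08. They include Eif1ad, at 0.06, which is placed here by its symbol alone. Without non-Tfh T32 the median was 0.05 with 3 of 6 below 0, without Tfh T32 it was -0.21, and without non-Tfh T53 -0.15. Eif1, whose protein guards against wrong start codons, had 71.0 and 76.9 CPM in Tfh cells, against 81.0 and 97.2 CPM in non-Tfh cells, without overlap, with a log2 fold change of -0.27 ± 0.14 and an adjusted p of 0.315 (edgeR). Its close relative Eif1b had 22.1 and 17.6 CPM in Tfh cells and 22.3 and 18.7 CPM in non-Tfh cells. Of the eIF1A genes, Eif1a had 50.8 and 39.1 CPM in Tfh cells and 64.6 and 50.4 CPM in non-Tfh cells, and the X-linked Eif1ax 54.5 and 54.0 CPM against 60.4 and 46.4 CPM. Both overlapped between groups. Their ratio did not, and how often that happens for other gene pairs was not tested. The log2 fold change of Eif1a was -0.35 ± 0.18 with an adjusted p of 0.346 (edgeR), which ran from 0.0482 to 0.865 over the 13 alternatives. Per kilobase, Eif1a stood to Eif1ax as 1.18 and 0.916 in Tfh cells, against 1.35 and 1.37 in non-Tfh cells. With the longest coding transcript this was 1.68 and 1.31 in Tfh cells, against 1.93 and 1.96 in non-Tfh cells. Eif5, which activates the GTPase of eIF2, and Eif1ad overlapped, at -0.13 and 0.06 on the log2 scale.

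All 5 tested genes of eIF2 and tRNA delivery were below 0, with a median of -0.24 and 0 called (0 at an unadjusted p under 0.05, and 0 by DESeq2 and limma-voom). Without non-Tfh T32, 3 of 5 were below 0 and the median was -0.11, and without Tfh T32 it was -0.13. Eif2s1, the alpha subunit that stress kinases phosphorylate, had 67.4 and 55.0 CPM in Tfh cells, against 97.1 and 66.7 CPM in non-Tfh cells. Tfh T32 and non-Tfh T53 overlapped, the log2 fold change was -0.42 ± 0.21 and the adjusted p was 0.315 (edgeR). Without a filter on low counts its adjusted p was 0.0412, and over the 13 alternatives it ran from 0.0352 to 0.792. Eif2s2, the beta subunit, had 60.9 and 64.8 CPM in Tfh cells, against 77.8 and 70.1 CPM in non-Tfh cells, without overlap. The gamma subunit gene Eif2s3x had 194 and 185 CPM in Tfh cells and 226 and 180 CPM in non-Tfh cells, which overlap. Its Y-linked partner Eif2s3y had no count in any library, like the Y-linked Ddx3y and Kdm5d, while the Y-linked Uty had 2 counts in non-Tfh T32 and 0 in the other libraries. Eif2a, a factor outside the eIF2 complex that can bring initiator tRNA, was at -0.24, and Eif2d, known for delivery of tRNA without GTP, at -0.03.

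Of the 5 genes of eIF2B, which recharges eIF2, Eif2b4 was above the rest. It had 27.0 and 31.8 CPM in Tfh cells, against 24.4 and 22.9 CPM in non-Tfh cells, without overlap, with a log2 fold change of 0.31 ± 0.15 and an adjusted p of 0.318 (edgeR). Eif2b3, Eif2b1, Eif2b5 and Eif2b2 were at -0.31, -0.26, -0.15 and -0.004. Eif2b4 shares 204 exon bases with Snx17 on the opposite strand, and whether strand was used in counting is not given in the sources used here. Of the kinases of eIF2 alpha, Eif2ak1, or HRI, which senses heme, had 67.4 and 58.7 CPM in Tfh cells and 56.3 and 62.4 CPM in non-Tfh cells. Eif2ak3, or PERK, which senses unfolded protein in the endoplasmic reticulum, had 29.0 and 33.7 CPM against 36.9 and 38.0 CPM, without overlap, at an adjusted p of 0.355 (edgeR). Eif2ak4, or GCN2, which senses uncharged tRNA, was at -0.005 ± 0.19.

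The genes of subunit joining and of eIF5A were spread around 0. Eif5a encodes the hypusine-carrying factor that helps ribosomes through stretches of proline. It had 147 and 158 CPM in Tfh cells, against 214 and 162 CPM in non-Tfh cells, where non-Tfh T32 alone was far from the rest. Eif5a2, its second gene, had 22.3 and 19.4 CPM in Tfh cells and 19.96 and 18.7 CPM in non-Tfh cells. Per kilobase, Eif5a2 stood to Eif5a as 0.0718 and 0.0579 in Tfh cells, against 0.0442 and 0.0543 in non-Tfh cells, and the nearest libraries, both numbered T53, were close. Eif6, which keeps the large subunit from joining too early, was at -0.12 ± 0.15. Eif5b, the GTPase of subunit joining, had 38.5 and 55.4 CPM in Tfh cells and 43.7 and 45.1 CPM in non-Tfh cells, so the Tfh libraries lay on either side of the non-Tfh libraries. Eif5b shares 1643 exon bases with Rev1 on the opposite strand.

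All 6 tested genes placed with the elongation factors by symbol were below 0. They include Eef1e1, at -0.30, which encodes a protein of the aminoacyl-tRNA synthetase complex. The median log2 fold change of the 6 was -0.31 and 0 of 6 were called (2 at an unadjusted p under 0.05, 0 by DESeq2 and 0 by limma-voom). Leaving out 1 library at a time, this median ran from -0.46 to -0.14, with the values nearest to 0 without Tfh T53 (-0.17) and without non-Tfh T32 (-0.14), where 5 of 6 were below 0. Eef1a1 had 5952 and 4999.9 CPM in Tfh cells, against 6254 and 5656 CPM in non-Tfh cells, which overlap, with a log2 fold change of -0.12 ± 0.17. Eef2 had 1719 and 1682 CPM in Tfh cells, against 2052 and 1845 CPM in non-Tfh cells, without overlap, at -0.20 ± 0.14. Both 95% intervals lay within 1.5-fold in either direction, with adjusted p of 0.759 and 0.511 (edgeR). The genes of the eEF1B exchange complex were further from 0. Eef1d had 68.4 and 55.7 CPM in Tfh cells, against 94.3 and 83.2 CPM in non-Tfh cells.

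The groups did not overlap for Eef1d, with a log2 fold change of -0.51 ± 0.15 (95% interval -0.86 to -0.16) and an adjusted p of 0.0904 in edgeR's quasi-likelihood test. Without a filter on low counts its adjusted p was 0.00612, and over the 13 alternatives it ran up to 0.463. Eef1d shares 277 exon bases on the same strand with Naprt, which had 102 and 48 counts in Tfh cells and 35 and 15 counts in non-Tfh cells. Whether this overlap bears on the difference was not tested. Eef1g, the structural gamma subunit, had 319 and 277 CPM in Tfh cells, against 412 and 356 CPM in non-Tfh cells, without overlap, at -0.37 ± 0.14 and an adjusted p of 0.194 (0.0263 to 0.695 over the 13 alternatives). Eef1b2, the exchange subunit beta, had 278 and 219 CPM in Tfh cells, against 341 and 280.3 CPM in non-Tfh cells, also without overlap, at -0.32 ± 0.17 and an adjusted p of 0.337 (0.0395 to 0.870 over the 13 alternatives). Eef1d to Eef1b2, per kilobase, stood at 0.0959 and 0.0991 in Tfh cells, against 0.108 and 0.116 in non-Tfh cells, while Eef1g to Eef1b2 overlapped. Eef1a1 to Eef2 stood at 4.62 and 3.96 in Tfh cells and at 4.06 and 4.09 in non-Tfh cells, so the balance of both steps of elongation overlapped. Eef1e1, a small protein of the aminoacyl-tRNA synthetase complex, had 11.8 and 9.78 CPM in Tfh cells and 16.1 and 10.6 CPM in non-Tfh cells.

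Eef2k encodes the kinase that phosphorylates eEF2 and slows elongation, and it had the largest difference and the lowest tested level. It had 42 and 22 counts, or 3.52 and 3.84 CPM, in Tfh cells, against 108 and 51 counts, or 8.04 and 5.73 CPM, in non-Tfh cells. The groups did not overlap, the log2 fold change was -0.92 ± 0.30 (95% interval -1.64 to -0.19), and the adjusted p was 0.132 (edgeR). Over the 13 alternatives the adjusted p of Eef2k ran from 0.0630 to 0.562. Eef2kmt, which methylates eEF2, had 13.4 and 12.6 CPM in Tfh cells, against 18.3 and 16.1 CPM in non-Tfh cells, without overlap, at -0.40 ± 0.18 and an adjusted p of 0.247. It shares 472 exon bases with Alg1 on the opposite strand. The eEF1A lysine methyltransferase genes Eef1akmt1 and Eef1akmt2 overlapped, at -0.20 ± 0.23 and 0.08 ± 0.18.

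Set against each other within the libraries of 1 number, Tfh T32 over non-Tfh T32 was below 0 for 46 of the 58 genes, where this held for 50.9% of all genes. Tfh T53 over non-Tfh T53 was below 0 for 37 of the 58, where this held for 50.1% of all genes. The sign was the same in both for 39 of the 58, where this held for 71.9% of all genes. Eef2k, at -1.19 and -0.58, and Eef1d, at -0.46 and -0.58, were low in both. Eif4enif1, at 0.51 and 0.36, and Eif4g3, at 0.38 and 0.24, were high in both. Eif5a, at -0.54 and -0.04, differed within T32 alone.

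**Figure D4:**
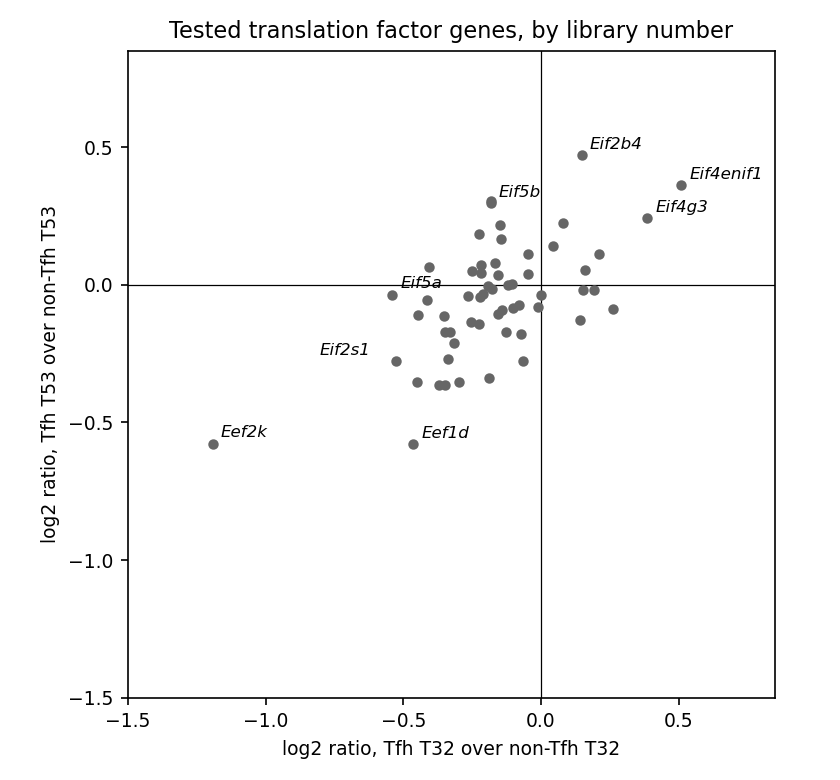
Log2 ratio of scaled CPM, Tfh T32 over non-Tfh T32 (horizontal) against Tfh T53 over non-Tfh T53 (vertical), 1 point for each of the 58 tested translation factor genes. Eef2k and Eef1d lie low and Eif4enif1 and Eif4g3 high on both axes, and 46 points lie left of 0 against 37 below 0. That libraries of 1 number belong together is not stated in the labels.

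Other genes of protein synthesis were counted in lists of known function, with 4.47% of all genes called higher and 4.02% called lower in Tfh cells. Among 76 tested cytosolic ribosomal protein genes 0 were called by edgeR, 0 by limma-voom and 2 by DESeq2, with 14 at an unadjusted p under 0.05. Of them 75 were below 0, with a median log2 fold change of -0.29, which ran from -0.45 to -0.12 when 1 library at a time was left out, with 65 below 0 without Tfh T53 and 68 without non-Tfh T32. Rpl4 had 911 and 751 CPM in Tfh cells, against 1199 and 1036 CPM in non-Tfh cells, and Rpl13a 975 and 726 CPM in Tfh cells, against 1140.5 and 976 CPM in non-Tfh cells. In both genes the Tfh libraries were below the non-Tfh libraries, in Rpl13a with the nearest pair almost level. The 9 translation factor genes known to carry a 5′ pyrimidine tract (Eef1a1, Eef1b2, Eef1d, Eef1g, Eef2, Eif3e, Eif3f, Eif3h and Eif4b) were all below 0, with a median of -0.19 and 0 called by edgeR, DESeq2 and limma-voom (2 at an unadjusted p under 0.05). Without Tfh T53, 7 of the 9 were below 0 with a median of -0.07, and without non-Tfh T32, 6 of the 9 with a median of -0.04.

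Of 20 genes of ribosome biogenesis and Myc, 2 were called lower in Tfh cells, 0 higher, and 18 were below 0, with a median of -0.48. Without non-Tfh T32 that median was -0.31. Dkc1, the pseudouridine synthase dyskerin, had 38.6 and 40.9 CPM in Tfh cells, against 65.0 and 56.7 CPM in non-Tfh cells (log2 fold change -0.62 ± 0.13, adjusted p 0.0390 by edgeR). In DESeq2 its adjusted p was 0.0523, and over the 13 alternatives it ran from 0.00138 to 0.182. Polr1b, a subunit of RNA polymerase I, had 23.0 and 21.5 CPM in Tfh cells, against 38.6 and 37.0 CPM in non-Tfh cells (-0.76 ± 0.14, adjusted p 0.0230). Dph5, an enzyme of the diphthamide on eEF2, was the 1 gene called of 9 in hypusine and diphthamide synthesis, with 24.0 and 24.1 CPM in Tfh cells, against 42.2 and 45.6 CPM in non-Tfh cells (-0.87 ± 0.13, adjusted p 0.0145).

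Calls in the other direction were also made. Bzw2, an eIF5 mimic that competes with eIF5, was the 1 gene called of 12 other initiation helpers, with 224 and 200 CPM in Tfh cells, against 134 and 146 CPM in non-Tfh cells (log2 fold change 0.60 ± 0.12, adjusted p 0.0341 by edgeR). Ddit4, or REDD1, which restrains mTORC1, was the 1 called of 15 tested genes of the integrated stress response, with 111 and 132 CPM in Tfh cells, against 67.0 and 73.8 CPM in non-Tfh cells (0.79 ± 0.13, adjusted p 0.0189). Atf4, the main transcription factor of that response, had 86.9 and 85.9 CPM in Tfh cells and 94.97 and 86.3 CPM in non-Tfh cells. With 1 library left out, the adjusted p of Bzw2, Dkc1 and Polr1b was above 0.05 in 3 of 4 cases, that of Dph5 in 2 and that of Ddit4 in 1.

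No gene was called in the remaining lists. These were 22 cytosolic aminoacyl-tRNA synthetase genes (3 at an unadjusted p under 0.05), 11 of mTORC1 and S6 kinase (1), 8 of termination and recycling (0), 8 of poly(A)-binding (3), 9 of cap-binding inhibitors and Mnk kinases (1) and 10 mitochondrial factors (0). DESeq2 called 1 of the cap-binding inhibitor genes and none of the others, and limma-voom none. The mTOR gene Mtor had 112 and 129 CPM in Tfh cells, against 89.8 and 101 CPM in non-Tfh cells, at 0.34 ± 0.13 and an adjusted p of 0.193. Larp1, which binds the 5′ pyrimidine tract, had 133 and 132 CPM in Tfh cells, against 178 and 176 CPM in non-Tfh cells, at -0.41 ± 0.11 and an adjusted p of 0.0677. Of the genes that the symbol rule left out, Eif4ebp1, Eif4ebp2 and Eif2ak2 had adjusted p of 0.864, 0.870 and 0.555.

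**Figure D5:**
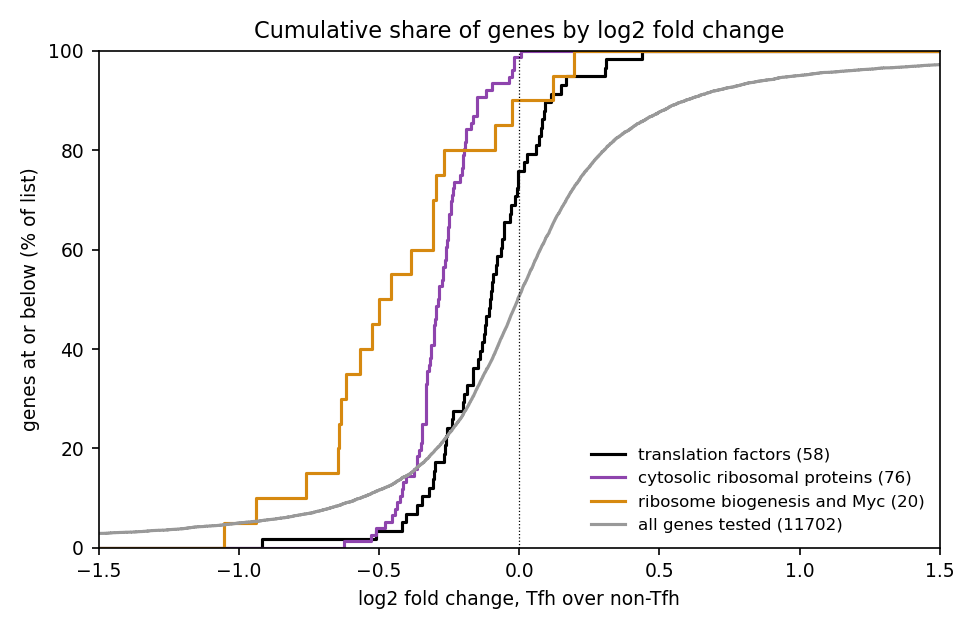
Share of genes (vertical axis, percent of each list) at or below a given log2 fold change, Tfh over non-Tfh, for the 58 tested translation factor genes, 76 cytosolic ribosomal protein genes, 20 genes of ribosome biogenesis and Myc, and all 11702 genes tested. The translation factor curve rises steeply around its median of -0.10, between the ribosomal protein genes (median -0.29) and all genes (-0.0054), and the biogenesis curve lies furthest left (-0.48).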

How the data were processed

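RNA of 4 samples was sequenced as stranded total RNA in read pairs of 75 bases. The deposited values are raw counts per Ensembl gene, made by the authors with TopHat2, Bowtie2 and HTSeq on GRCm38 (mm10), per the submitters' processing notes, in which versions, annotation release and strand setting are not given. Exon lengths and positions came from GENCODE M21 (GRCm38). Symbols came from a separate list of gene names matched by Ensembl identifier, which named 37607 identifiers. The 1572 without a symbol held 0.209 to 0.228% of counts and stayed in the totals.

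Counts were compared in R 4.3.3 with edgeR 4.0.16: filterByExpr by group, TMM scaling, robust quasi-likelihood fits with the group alone (2 residual degrees of freedom), two-sided tests and Benjamini-Hochberg adjustment over the 11702 genes kept, at 0.05. The SE was taken as the size of the log2 fold change divided by the root of F, and the 95% interval uses the t distribution with the fit's degrees of freedom. FPKM is scaled CPM per kilobase of all exons. Near-identical copies were found with BLAST 2.17.0. Alternatives were RLE and upper-quartile scaling, totals less mitochondrial genes and the 10 most abundant ones, DESeq2 1.42.0, limma-voom (limma 3.58.1), no count filter, at least 5 CPM in 2 libraries, no robust option, a replicate block, and each library left out. With 1 library left out, the lone library of a group is assumed to vary like the other group. The code was tested on simulated counts.

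The genes and all lists were chosen with earlier results of these data known. Named by rule were the 2 genes of each role with the highest level per length, paralogue pairs, the sorting genes, and up to 4 called genes of each list or the 2 most abundant. The other 30 translation factor genes, Atf4, Larp1, Myc, the markers, the Y-linked genes and the overlapping or copied genes were named with their values already seen.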

Additional observations from a re-analysis of the deposited data

How the results depend on the processing

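Scaling, the dispersion option and the test changed no call of a translation factor gene: 0 of them were called under RLE or upper-quartile scaling, without the most abundant genes, without the robust option, at 5 CPM or more, by DESeq2 or by limma-voom. With no count filter, 1006 genes were called higher and 980 lower in Tfh cells, with 1 and 2 of the translation factor genes among them (Eif4enif1 higher; Eef1d and Eif2s1 lower). With a replicate block for the library number, 1069 genes were called higher and 1051 lower, with 2 and 5 of the translation factor genes (Eif4enif1 and Eif4g3 higher; Eef1b2, Eef1d, Eef1g, Eif1a and Eif2s1 lower; edgeR adjusted p 0.0105 to 0.0482). The labels tie no libraries by number, and the deviations of same-numbered libraries from their group means correlated at 0.368 over genes, from 2 pairs. With 1 library left out, 298 to 454 genes were called higher and 247 to 435 lower, fewest without Tfh T53, the shallowest library, and 0 translation factor genes; their median log2 fold change ran from -0.20 without non-Tfh T53 to 0.019 without non-Tfh T32. Outside the translation factor genes, Larp1, Myc and Cd44 were called without a count filter, and Rpl4, Larp1, Mtor, Myc and Cd44 with the block. The block was fitted to the same 11702 genes as the first test, and the number of genes tested without a count filter is not given here. The cause of these shifts was not tested.

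Of the other results, values near 0 changed sign in single settings. Eif2b2 was at 0.0025 at 5 CPM or more; Eif2ak4 at 0.014 in limma-voom, 0.00059 at 5 CPM or more and 0.014 with the replicate block; Eif3d at 9.6e-05 in limma-voom; Mknk2 at 0.0028 with upper-quartile scaling, 0.0023 in limma-voom and 0.0062 at 5 CPM or more; Rps6kb1 at -0.0024 with RLE scaling, -0.0052 in DESeq2 and -0.0019 without a count filter. The sign of 34 genes changed in at least 1 setting. With 1 library left out, these log2 fold changes ran as follows: Eef1a1 from -0.25 to 0.014, Eef1akmt1 from -0.42 to 0.084, Eef1akmt2 from -0.054 to 0.22, Eif1ax from -0.16 to 0.23, Eif1b from -0.21 to 0.12, Eif2ak1 from -0.011 to 0.20, Eif2b2 from -0.18 to 0.22, Eif2s3x from -0.25 to 0.080, Eif3f from -0.090 to 0.070, Eif3h from -0.34 to 0.049, Eif4b from -0.19 to 0.070, Eif4e3 from -0.049 to 0.20, Eif4g1 from -0.14 to 0.043, Eif6 from -0.25 to 0.034, Eef1e1 from -0.56 to 0.048, Eif1ad from -0.10 to 0.24, Eif2ak4 from -0.21 to 0.22. The others ran Eif2d from -0.13 to 0.083, Eif3a from -0.20 to 0.011, Eif3b from -0.24 to 0.036, Eif3c from -0.065 to 0.13, Eif3d from -0.14 to 0.14, Eif3i from -0.22 to 0.073, Eif3k from -0.069 to 0.28, Eif3l from -0.20 to 0.12, Eif4a3 from -0.29 to 0.13, Eif4h from -0.19 to 0.015, Eif5b from -0.19 to 0.32, Etf1 from -0.34 to 0.061, Abce1 from -0.32 to 0.038, Pabpc1 from -0.22 to 0.27, Mknk2 from -0.039 to 0.049, Rps6kb1 from -0.034 to 0.056, Guf1 from -0.086 to 0.11. Depth limits the lowest genes: with 22 to 108 counts in a library, the interval of Eef2k was the widest among the 58.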
